A study of Mus with 6 samples.

Results

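The miR-290 cluster of the mouse, which runs from miR-290 to miR-295, is a group of miRNA genes that are processed from a common primary transcript and are among the most abundant miRNAs of embryonic stem cells. In those cells several of its members share a seed, the short stretch that pairs with target mRNAs, with the miR-302 family, and they are known to shorten the G1 phase by repressing inhibitors of the cell cycle such as p21 and Lats2. Its transcription is known to fall as stem cells differentiate, so the cluster is not a usual constituent of fat cells. Its members were taken here as every name in the count tables that begins with mmu-miR-290 to mmu-miR-295. This gave 16 mature names of 1211 known mouse miRNAs listed in at least 1 table, and 12 of the 16 were listed for all 6 libraries. The members in view from the start were mmu-miR-292a-5p and mmu-miR-293-3p (the prefix mmu, for mouse, is left out below). The cluster was chosen by its counts, its presence in each library and its difference between the groups, so all of these are given as a description and none of them as a test.

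The libraries were made from adipocytes of wild-type C57BL/6 mice, 3 of a model group under chronic intermittent hypoxia (CIH), in which oxygen drops again and again as in sleep apnoea, and 3 of a control group. The labels give no age, no length of exposure, and do not say whether each library had its own animal or culture, so the spread between libraries may be technical. The comparison asks which miRNAs differ between the CIH model and the control group. Total counts ran from 7336758 to 11264151 in CIH and from 6291101 to 9720485 in control, and levels are given as CPM, the counts per 1000000 counts of a library. A count of 3, taken as the floor of detection, was 0.266 to 0.409 CPM in CIH libraries and 0.309 to 0.477 CPM in control libraries.

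The label of adipocytes could be checked only in part, because no miRNA is exclusive to them. The 8 listed miRNAs that are abundant in adipocytes, among them miR-143-3p and miR-103-3p, were over the floor in all 6 libraries, with sums of 188524 to 339156 CPM under CIH and 276993 to 641565 CPM in control. A pair here is the CIH and the control library of equal number, joined by that number alone. The sum of the 8 was lower in CIH in each pair, with log2 differences of -0.39, -0.59 and -0.92 in the pairs numbered 1, 2 and 3. In the pair numbered 3 most of it was miR-148a-3p, with 249065 CPM in CIH library 3 and 493520 CPM in control library 3. Without miR-148a-3p the sum was 90091 CPM in CIH library 3 and 148045 CPM in control library 3. The members did not all move alike. In that pair miR-26a-5p (12458 CPM in CIH, 3758 CPM in control) and miR-26b-5p (2185 and 838 CPM) were higher in CIH, and the others lower. miR-26b-5p was also higher in CIH in the pair numbered 2 (1314 and 1254 CPM). None of the 8 passed the test described below over 6 libraries, and in the libraries numbered 1 and 2 miR-148a-3p fell (edgeR adjusted p = 0.0348) and 7 did not pass. The fit of the libraries numbered 1 and 2, with 2 libraries a group, called 5.23% of all 459 miRNAs lower in CIH. The part of the differences of these 8 miRNAs in the values of the cluster was not tested. The libraries numbered 3 stood apart from the others. Log2 CPM values over the 456 tested miRNAs correlated at 0.976 to 0.991 among the 4 libraries numbered 1 and 2, at 0.917 to 0.932 between these and the libraries numbered 3, and at 0.923 in the pair numbered 3 (these are correlations across miRNAs, which are not independent). The tables of the pair numbered 3 also list 1186 names against 1053 in the other 4. Values are therefore given for each library, with and without the pair numbered 3.

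The precursors lie on mouse chromosome 7 (GRCm38), where the RefSeq table lists 9 of them between 3218626 and 3220841, a span of 2216 bases. In order they are Mir290a, Mir290b, Mir291a, Mir292, Mir292b, Mir291b, Mir293, Mir294 and Mir295. The span overlaps 2 other genes of the table, D7Ertd143e (3218784 to 3221015) and Nlrp12 (3218643 to 3249771). The precursor of miR-293 is at 3220343 to 3220422, that of miR-294 at 3220641 to 3220724 and that of miR-295 at 3220773 to 3220841. Mir292b (3219198 to 3219259) lies inside the span of Mir292, the precursor of miR-292a (3219189 to 3219270), and Mir290b lies inside Mir290a. Whether reads were counted by strand is not given in the sources used here, so counts for miR-292a and miR-292b may not be separate measurements. Outside the cluster, miR-126a-5p and miR-126b-3p had the same level (3.20 CPM each in CIH library 3, 1.69 CPM each in control library 3). So did miR-338-3p and miR-3065-5p (0.0888 CPM each in CIH library 3, 0.847 CPM each in control library 3). The cause was not tested.

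As a sum over its members, the cluster was a trace constituent of 5 libraries and all but absent from the sixth. It held 137, 117 and 1 counts in CIH libraries 1, 2 and 3, against 136, 190 and 438 counts in control libraries 1, 2 and 3. Of the 438 counts, 83 were of miR-292b-3p, which may repeat reads of miR-292a-5p. In CPM these sums were 18.7, 11.7 and 0.0888 in CIH and 21.6, 19.5 and 53.0 in control. Every CIH library was thus below every control library, but CIH library 1 and control library 2 were close, at 18.7 (exact 95% Poisson interval 15.7 to 22.1) and 19.5 CPM (16.9 to 22.5). The intervals here and below cover counting error only. The means were 10.1 ± 9.38 CPM under CIH and 31.4 ± 18.8 CPM for control (n = 3 each, ± SD). Without the pair numbered 3 they were 15.2 CPM under CIH and 20.6 CPM in control, a ratio of 0.737. In bulk RNA, fewer cells that express a miRNA and less of it per cell cannot be told apart.

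**Figure D1:**
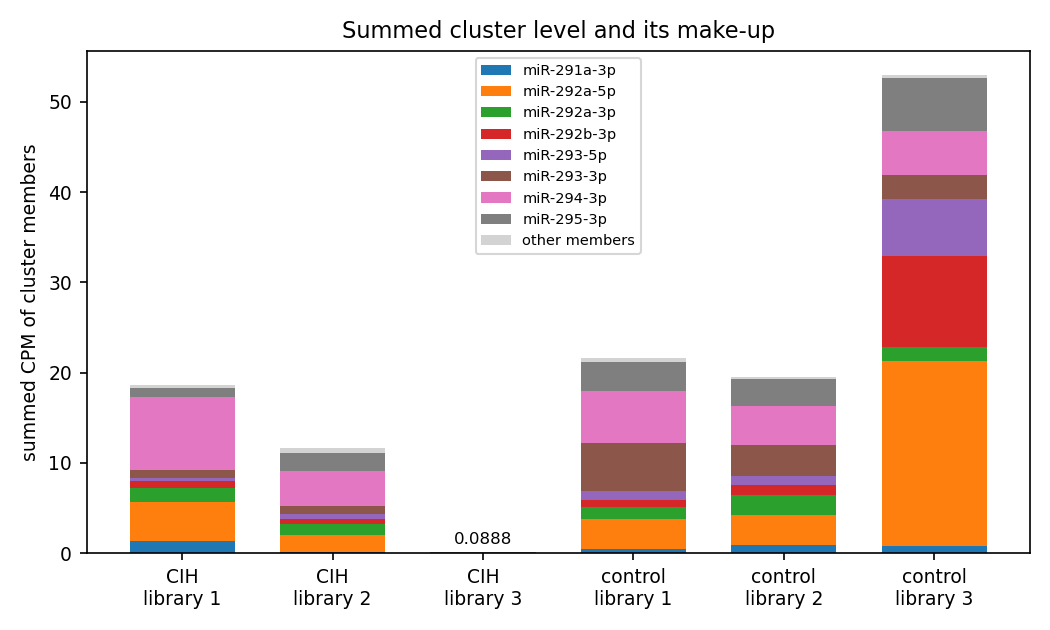
Summed CPM of the cluster's members (vertical axis) in each of the 3 CIH and 3 control libraries, with the parts of each bar coloured by member. The bar of CIH library 3, at 0.0888 CPM, is too low to see, and control library 3, at 53.0 CPM, is the highest, with miR-292a-5p as its largest part.

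The difference in the pair numbered 3 was much larger than in the other pairs. CIH library 3 held a single read of the whole cluster, assigned to miR-295-3p, although it was the deepest library. The control level of that pair was 597 times the CIH level, with a counting interval of 107 to 23645 (exact 95% binomial interval of the counts). In the pair numbered 1 the ratio of CIH to control was 0.864 (0.676 to 1.10), an interval that includes 1, and in the pair numbered 2 it was 0.596 (0.469 to 0.754).

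How the reads were spread over the names differed as widely. No count was found for miR-290a-5p, miR-290b-3p and miR-295-5p, names that only the tables of the pair numbered 3 list, and the floor of 3 counts there is 0.266 CPM in CIH library 3 and 0.363 CPM in control library 3. A further 5 names had between 2 and 5 counts over all libraries (miR-291a-5p, miR-291b-3p, miR-291b-5p, miR-292b-5p and miR-294-5p). All 5 counts of miR-291a-5p were in CIH library 2. The remaining 8 names had 30 or more counts, and a filter on low counts (filterByExpr of edgeR) passed 5 of these in the comparison of 6 libraries, namely miR-292a-5p, miR-292a-3p, miR-293-3p, miR-294-3p and miR-295-3p. Mature miRNAs are of nearly equal length, and counts were not divided by it.

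miR-293-3p, an arm of miR-293 that does not carry the seed of the miR-302 family, was lower in CIH than in control in all 3 pairs by more than counting error. It had 7, 8 and 0 counts in CIH libraries 1, 2 and 3, against 34, 34 and 22 counts in control libraries 1, 2 and 3. This is 0.954, 0.797 and 0 CPM under CIH and 5.40, 3.50 and 2.66 CPM in control. The groups did not overlap, the 3 CIH libraries lying low and the 3 control libraries high, with means of 0.584 ± 0.511 CPM under CIH and 3.86 ± 1.41 CPM for control (n = 3 each, ± SD). The ratio of CIH to control was 0.177 (counting interval 0.0660 to 0.405) in the pair numbered 1 and 0.228 (0.0911 to 0.501) in the pair numbered 2. In the pair numbered 3, where CIH had no count, the control level was 10.0 times the floor of 3 counts in CIH library 3. The counting interval of that pair put the control level at 7.47 times the CIH level or more.

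miR-295-3p, one of the arms with the seed shared with miR-302, also had groups that did not overlap. It had 7, 20 and 1 counts in CIH libraries 1, 2 and 3, against 20, 29 and 49 counts in control libraries 1, 2 and 3. The levels were 0.954, 1.99 and 0.0888 CPM under CIH and 3.18, 2.98 and 5.93 CPM in control. CIH library 2 came close to the controls: the ratio of CIH to control was 0.668 (0.358 to 1.22) in its pair, 0.300 (0.107 to 0.739) in the pair numbered 1, and 0.0150 (0.000371 to 0.0874) in the pair numbered 3. The means were 1.01 ± 0.953 CPM under CIH and 4.03 ± 1.65 CPM for control (n = 3 each, ± SD).

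miR-294-3p, the arm best known for promoting the cell cycle of stem cells, showed no such order outside the pair numbered 3. It had 59, 40 and 0 counts in CIH libraries 1, 2 and 3, against 36, 42 and 40 counts in control libraries 1, 2 and 3. In CPM it stood at 8.04, 3.98 and 0 in CIH and at 5.72, 4.32 and 4.84 in control. The highest and the lowest library were both of the CIH group, so the groups overlapped. The ratio of CIH to control was 1.41 (0.913 to 2.19) in the pair numbered 1 and 0.922 (0.583 to 1.46) in the pair numbered 2. In the pair numbered 3 its control level was 18.2 times the floor of CIH library 3, with a lower counting limit of 14.1 times the CIH level.

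**Figure D2:**
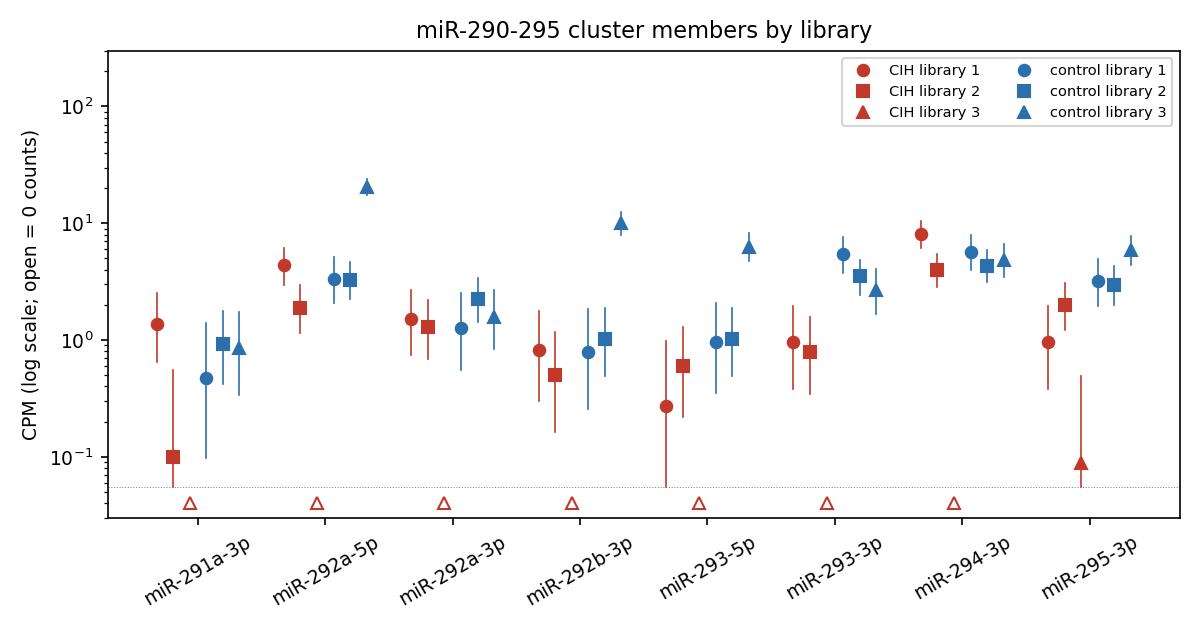
CPM (log scale) of the 8 members with 30 or more counts, in CIH libraries (red, left of each group of points) and control libraries (blue, right). Lines are exact 95% Poisson intervals, their lower ends drawn only down to the dotted line, and open symbols below it mark 0 counts, which occur for 7 of the 8 in CIH library 3. miR-293-3p, miR-293-5p and miR-295-3p have every red point below every blue one.

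miR-292a-5p rested on 1 control library. This arm comes from the other side of the hairpin than the arm with the stem cell seed. It had 32, 19 and 0 counts in CIH libraries 1, 2 and 3, against 21, 32 and 169 counts in control libraries 1, 2 and 3. Its levels were 4.36, 1.89 and 0 CPM under CIH and 3.34, 3.29 and 20.5 CPM in control. Control library 3 was far above the other 5, and among the 4 libraries numbered 1 and 2 the groups overlapped, with means of 3.13 CPM under CIH and 3.32 CPM in control. In the pair numbered 3 its control level was 76.8 times the floor of CIH library 3, with a lower counting limit of 61.8 times the CIH level. Its partner arm miR-292a-3p had 11, 13 and 0 counts in CIH libraries 1, 2 and 3 and 8, 22 and 13 counts in control libraries 1, 2 and 3, and was not raised in control library 3.

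miR-292b-3p and miR-293-5p were also far higher in control library 3 than in control libraries 1 and 2, and miR-295-3p, given above, was highest there too, by less. miR-292b-3p, whose precursor lies within that of miR-292a, stood at 0.818, 0.498 and 0 CPM under CIH and at 0.795, 1.03 and 10.0 CPM in control (libraries 1, 2 and 3 of each group). miR-293-5p stood at 0.273, 0.597 and 0 CPM under CIH and at 0.954, 1.03 and 6.30 CPM in control. Both had their highest level in control library 3 and none in CIH library 3. For miR-293-5p the groups did not overlap, but its counts of 2 and 6 in CIH libraries 1 and 2 against 6 and 10 in control libraries 1 and 2 gave counting intervals of the ratio that include 1, 0.0282 to 1.60 and 0.173 to 1.76. miR-291a-3p, a further arm with the miR-302 seed, stood at 1.36, 0.0996 and 0 CPM under CIH and at 0.477, 0.926 and 0.847 CPM in control, all of it at or below 10 counts a library.

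The balance of the 2 arms of a hairpin followed the library as well. Of the reads of miR-293, the 5p arm took 22.2% (2 of 9 counts, exact 95% binomial interval 2.81% to 60.0%) in CIH library 1 and 42.9% (6 of 14, 17.7% to 71.1%) in CIH library 2. It took 15% (5.71% to 29.8%) in control library 1 and 22.7% (11.5% to 37.8%) in control library 2, but 70.3% (58.5% to 80.3%) in control library 3. The interval of control library 3 lay above those of control libraries 1 and 2, and it overlapped those of the CIH libraries, which rest on few counts. For miR-292a the 5p arm took 74.4% and 59.4% in CIH libraries 1 and 2, against 72.4%, 59.3% and 92.9% (88.1% to 96.1%) in control libraries 1, 2 and 3. For miR-294 the 3p arm held 59 of 61 counts and 40 of 40 in CIH libraries 1 and 2, and 36 of 37, 42 of 42 and 40 of 40 in control libraries 1, 2 and 3, so its balance was alike in the 5 libraries with counts. CIH library 3 had no count for these 3 hairpins and gives no share.

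**Figure D3:**
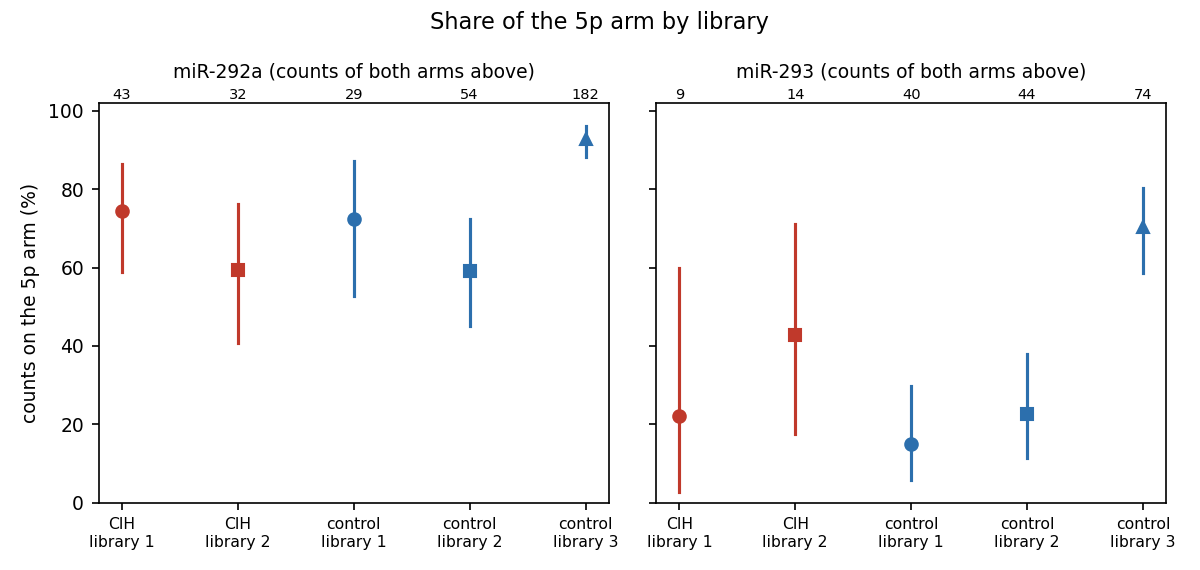
Share of counts on the 5p arm (vertical axis, %) of miR-292a (left panel) and miR-293 (right panel) in CIH libraries (red) and control libraries (blue), with exact 95% binomial intervals and the counts of both arms printed above. Control library 3 is the highest point of each panel, at 92.9% and 70.3%, and CIH library 3 is left out because it had no count of either hairpin.

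miR-292b-3p moved with miR-292a-5p. It made up 15.8% and 20.8% of the counts of both names in CIH libraries 1 and 2, against 19.2%, 23.8% and 32.9% (27.2% to 39.1%) in control libraries 1, 2 and 3. The intervals of all 5 libraries overlapped. As the precursors overlap, this is no independent measurement.

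The largest share of the cluster's reads was that of miR-294-3p in the libraries numbered 1 and 2 of both groups, and that of miR-292a-5p in control library 3. miR-294-3p took 43.1% (34.6% to 51.8%) and 34.2% (25.7% to 43.5%) of the cluster's reads in CIH libraries 1 and 2, against 26.5% (19.3% to 34.7%), 22.1% (16.4% to 28.7%) and 9.13% (6.60% to 12.2%) in control libraries 1, 2 and 3. miR-293-3p took 5.11% (2.08% to 10.2%) and 6.84% (3.0% to 13%) in CIH libraries 1 and 2, against 25% (18.0% to 33.1%), 17.9% (12.7% to 24.1%) and 5.02% (3.17% to 7.51%) in control libraries 1, 2 and 3. Its share in control library 3 was thus as low as in the CIH libraries, while that of miR-292a-5p was 38.6% (34% to 43.3%) there and between 15.4% and 23.4% in the other 4.

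Across the 8 names with 30 or more counts, CIH was lower than control for 3 of 8 in the pair numbered 1, for 8 of 8 in the pair numbered 2 and for 8 of 8 in the pair numbered 3. Among all known names with as many counts, the share lower in CIH was 53.8% of 526 in the pair numbered 1, 62.4% of 526 in the pair numbered 2 and 28.8% of 524 in the pair numbered 3. The counting interval of the ratio lay below 1 for 2 in the pair numbered 1 (miR-293-3p and miR-295-3p), for 2 in the pair numbered 2 (miR-291a-3p and miR-293-3p) and for 8 in the pair numbered 3. Over all these names it lay below 1 for 30.8%, 37.8% and 17.2% in the pairs numbered 1, 2 and 3. It lay above 1 for none of the 8 in any pair, and for 21.7%, 14.1% and 51.7% of all these names in the pairs numbered 1, 2 and 3. All these shares use CPM by library total. The scaling factors of edgeR (TMM), 1.11 for CIH library 3 and 0.635 for control library 3, would lower every ratio in the pair numbered 3. Shares with these factors were not counted. In the pairs numbered 1 and 2, 2 of 8 is no more than the share of all names. The shares are not matched for counts: all names include miRNAs with far more counts and narrower intervals, so nothing is read from this. The 8 include miR-292b-3p, which may not be a separate measurement from miR-292a-5p. Among the 8, miR-293-3p alone had an interval that lay below 1 in all 3 pairs. How many of all these names did so in all 3 pairs was not counted, so nothing is read from this. Each pair has 1 library a group, so these intervals compare libraries and not the conditions.

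**Figure D4:**
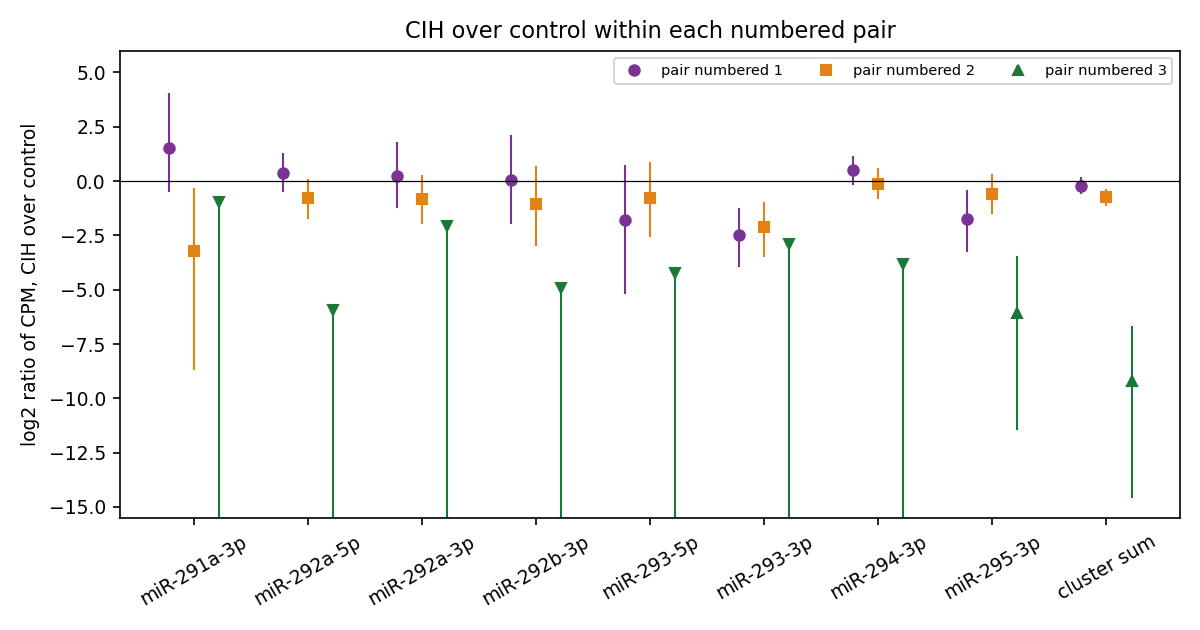
Log2 ratio of CPM, CIH over control (vertical axis), for the 8 members with 30 or more counts and for the cluster sum, in the pairs numbered 1 (circles), 2 (squares) and 3 (upright triangles), with 95% counting intervals. Triangles that point down mark the upper limit of the interval where CIH library 3 had no count. The intervals of miR-293-3p lie below 0 in all 3 pairs, while those of miR-294-3p include 0 in the pairs numbered 1 and 2.

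In the comparison of CIH with control over 6 libraries, the quasi-likelihood test of edgeR, with Benjamini-Hochberg adjustment, called 0% of 456 miRNAs at an adjusted p under 0.05, and none of the 5 members tested. At an unadjusted p under 0.05 there were 23 miRNAs, and DESeq2 also called 0, with 37 at an unadjusted p under 0.05. The fitted log2 differences were -2.83 (SE 1.01) for miR-293-3p, -2.71 (SE 1.5) for miR-292a-5p, -2.26 (SE 1.03) for miR-295-3p, -1.07 (SE 1.09) for miR-292a-3p and -0.54 (SE 1.24) for miR-294-3p. Without control library 3 the difference of miR-292a-5p was -0.58, that of miR-295-3p -1.40 and that of miR-294-3p -0.21, and without CIH library 3 miR-292a-3p stood at -0.47 and miR-294-3p at 0.0457, while miR-293-3p stood at -2.78 and -2.21. The median of the 5 was -2.26, beside 0.04 over all 456. The CPM ranges did not overlap, with CIH lower, for 2 of the 5 members and for 3.73% of the 456. They did not overlap, with CIH higher, for none of the 5 and for 7.46% of the 456. Of the 2 members, miR-293-3p was at 0.954 CPM or less in CIH, and miR-295-3p at 1.99 CPM or less. Both passed the filter on low counts only through their control libraries, so their place among the 456 depended on the group where they were high. With 1 count or none in CIH library 3, none of the 5 could pass through the CIH libraries alone. Of the 12 names listed in all 6 tables, 3 had ranges that did not overlap, all lower in CIH (miR-293-3p, miR-293-5p and miR-295-3p). The share over all known names listed in all 6 tables was not counted. The difference between the groups was in view when the cluster was chosen, so nothing is read from these counts.

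Without the pair numbered 3, the values of miR-293-3p and of miR-292a-5p parted. In the fit of the libraries numbered 1 and 2, with 2 libraries a group, the same edgeR test called 5.23% of 459 miRNAs lower in CIH and 9.37% in either direction (19 higher and 24 lower, or 7 higher and 27 lower with total counts as the scaling), and 1 of the 5 members tested, miR-293-3p. Here too miR-293-3p and miR-295-3p passed the filter only through their control libraries. The log2 difference of miR-293-3p there was -2.17 (SE 0.56). DESeq2 gave -2.20 (SE 0.79) and did not call it, and edgeR did not call it without CIH library 1 (-2.16), control library 1 (-1.92) or control library 2 (-2.33). The others stood at -0.84 (SE 0.57) for miR-295-3p (-0.34 without CIH library 1 and -1.65 without CIH library 2), -0.25 (SE 0.67) for miR-292a-3p, -0.00397 (SE 0.46) for miR-292a-5p and 0.37 (SE 0.40) for miR-294-3p. The CPM ranges did not overlap, with CIH lower, for 2 of the 5 (miR-293-3p and miR-295-3p) and for 32% of the 459, and with CIH higher for none of the 5 and for 17.4% of the 459. Since the difference between the groups was in view when the cluster was chosen, nothing is read from these shares.

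In the pair numbered 3, on the log2(CPM + 0.5) scale without TMM factors, all 5 tested members were at least 4-fold lower in CIH, against 4.39% of the 456 miRNAs. To set this beside the other libraries, names with at least 0.5 CPM in each of the other 5 libraries were counted, a tally chosen after the values were seen. There were 412 such names for CIH library 3, and 11 of them (2.67%) had 1 count or none there. Of these 11, 5 were cluster members, all of the 5 that met the condition. The others were miR-124-3p, miR-338-3p, miR-370-3p, miR-543-3p, miR-3065-5p and miR-3076-3p. The same tally gave 10 of 424 names for control library 3, none of them from the cluster, and between 0 and 2 names for each of the other 4 libraries. The presence of the members in each library was in view when the cluster was chosen, so nothing is read from these shares.

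**Figure D5:**
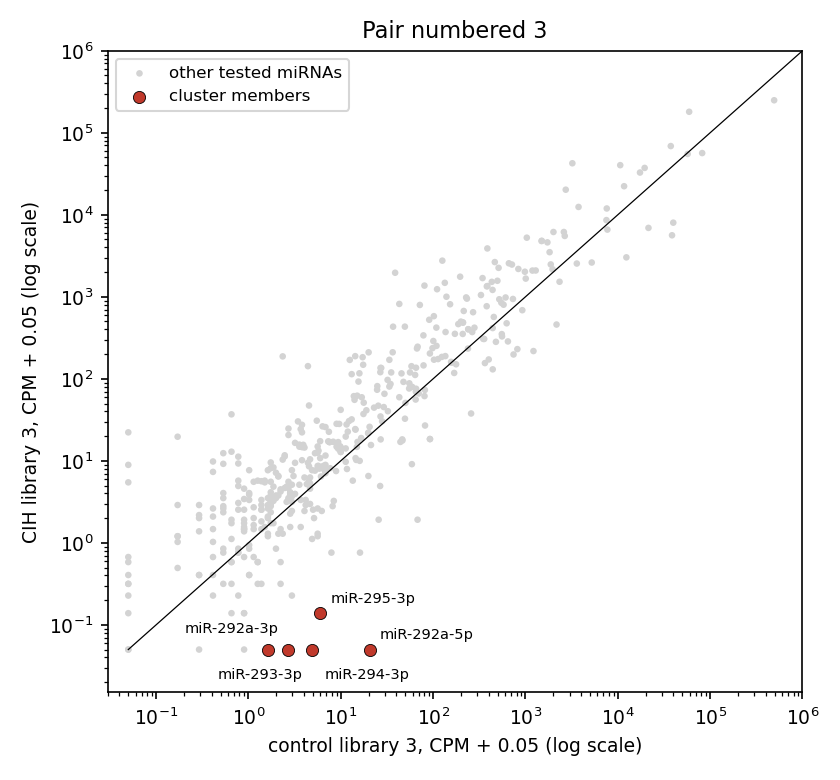
CPM with 0.05 added of the 456 tested miRNAs in CIH library 3 (vertical axis) against control library 3 (horizontal axis), both on log scales, with the line of equal levels. The 5 tested members of the cluster (red) lie at the lower edge, at 0 or 0.0888 CPM in CIH library 3 and between 1.57 and 20.5 CPM in control library 3.

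The few other miRNAs of pluripotent cells that were listed were at or near 0, and those not listed have no value here. The cluster of miR-302 and miR-367, which acts beside the miR-290 cluster in stem cells, is represented in the tables by 2 of its 10 listed names. miR-302b-3p had 1 count, in CIH library 2, and none in the other 5 libraries, and miR-302a-5p, listed for the pair numbered 3 alone, had none. Of the 6 miRNAs of the miR-17 family, whose seed resembles that of the cluster and which are made in most dividing cells, 4 were tested and none passed, with a median log2 difference of 0.18 over 6 libraries and 0.26 in the libraries numbered 1 and 2. Their sum was 1248, 1433 and 734 CPM in CIH libraries 1, 2 and 3, against 1390, 1336 and 434 CPM in control libraries 1, 2 and 3. It was thus higher in CIH in the pair numbered 3, where the sum of the miR-290 cluster was lower in CIH.

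The cluster is also known from germ cells, so miRNAs of the male germ line were read beside it. All 10 were listed and 7 were over the floor in every library. Their sum was 289.5, 251 and 300.3 CPM in CIH libraries 1, 2 and 3, against 487, 496 and 133 CPM in control libraries 1, 2 and 3. It was lower in CIH in the pairs numbered 1 and 2 and higher in the pair numbered 3, opposite to the cluster there. In the libraries numbered 1 and 2, 3 of the 9 tested fell (miR-741-3p, miR-743b-3p and miR-881-3p, edgeR adjusted p = 0.0284, 0.0155 and 0.0484), and 6 did not pass. That fit, with 2 libraries a group, called 5.23% of all 459 miRNAs lower in CIH. The list was chosen with earlier results of these data known, so nothing is read from this. Over 6 libraries none of the 9 passed.

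The sum of the epithelial miRNAs (the miR-200 family with miR-141, miR-203 and miR-205) was lower in CIH in each pair, but its members did not move alike. The sum was 170, 126 and 18.6 CPM in CIH libraries 1, 2 and 3, against 409, 334 and 76.3 CPM in control libraries 1, 2 and 3, with 4 of the 7 over the floor in every library. In the libraries numbered 1 and 2, 2 of 5 tested fell (miR-203-3p and miR-205-5p, edgeR adjusted p = 0.00751 and 0.000153), and over 6 libraries none passed. The fit of the libraries numbered 1 and 2, with 2 libraries a group, called 5.23% of all 459 miRNAs lower in CIH. This list too was chosen with earlier results known, and nothing is read from its calls. In the pair numbered 3 the lower sum came from miR-205-5p, at 1.86 CPM in CIH library 3 and 67.8 CPM in control library 3. Without it the sum was 16.7 CPM in CIH library 3 and 8.47 CPM in control library 3, higher in CIH, with miR-200a-3p, miR-200b-3p, miR-200c-3p and miR-203-3p each higher there. miR-200b-3p was also higher in CIH in the pair numbered 2, with 15.7 CPM in CIH library 2 and 13.8 CPM in control library 2. The part of such cells in the values of the cluster was not tested.

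The miRNAs whose levels ran most like those of the members were taken from 464 names outside the cluster with a mean of at least 1 CPM, by Pearson's r over the 6 libraries on log2(CPM + 0.5), as a description. For miR-293-3p they were miR-378a-3p (r = 0.90), miR-205-3p (0.90), miR-3065-5p and miR-338-3p (0.88 each, with identical counts) and miR-378c (0.88). miR-378a-3p stood at 29025, 25835 and 5624 CPM in CIH libraries 1, 2 and 3, against 43593, 38660 and 38662 CPM in control libraries 1, 2 and 3. For miR-292a-5p they were miR-183-5p (0.94), let-7b-3p (0.94), miR-378b (0.93), miR-1941-3p (0.93) and miR-1191a (0.92). Without CIH library 3, where both members had no count, r ranged from 0.71 to 0.98 for the first 5 names and from 0.81 to 0.97 for the second 5.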

How the data were processed

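Per the labels' protocols, small RNA of fat cells was isolated with a miRNA kit, purified on columns and sequenced on an Illumina HiSeq instrument. Of tools, the submitters' processing notes give featureCounts 1.5.0-p3 and DESeq 1.8.3, and of builds GRCm38, without roles. The sources used here do not state the trimming, aligner, miRBase release or strand. The deposited values are raw counts per mature miRNA: some headers say FPKM, but all values are whole and sum to a different total in each table. Files held 0 columns of other samples.

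The 929 known names common to all 6 tables (99.97% or more of each library) were tested with edgeR 4.0.16 (R 4.3.3; TMM, filterByExpr defaults, robust quasi-likelihood fit, group as the only term), with Benjamini-Hochberg adjustment. TMM factors were 1.11 for CIH library 3 and 0.635 for control library 3. DESeq2 1.42.0 was an alternative. Python 3.11.15 with pandas 2.3.3 and scipy 1.17.1 gave CPM and exact intervals, and the fits were tested on simulated data. The members and lists were chosen with earlier results of these data known, and all names matching the rule are reported. Libraries of equal number correlated in their deviations from the group means at 0.30, 0.34 and 0.40, and the numbers were used as pairs in a blocked fit. CIH library 2 correlated more closely with control library 1 (0.40) than with control library 2 (0.34), so these values do not establish the pairs. Chi-square per degree of freedom between libraries of a group was 135 or more, so none was a duplicate.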

Additional observations from a re-analysis of the deposited data

How the results depend on the processing

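Over 6 libraries the count of called miRNAs was 0 under every alternative: other scalings (DESeq2 size factors, total counts), no filter, a stricter filter, DESeq2, the replicate block, and each library left out. In the libraries numbered 1 and 2 the count was 43, and 48 with the replicate block. It ranged from 34 to 48 over these alternatives, apart from leaving out a library, where it fell to 6 when control library 2 was dropped, to 14 when control library 1 was and to 23 when CIH library 1 was, and came to 91 when CIH library 2 was. In these fits the spread of a group with 1 library was taken from the other group. With total counts as the scaling, the median log2 difference of all miRNAs moved to 0.15, against 0.04, over 6 libraries and to -0.17, against -0.03, in the libraries numbered 1 and 2, and no member changed sign. The replicate block changed no call of a member. Of the members' log2 differences, 5 changed sign, all by leaving out a library, and the cause was not tested. Over 6 libraries miR-294-3p ranged from -1.31 (without CIH library 1) to 0.0457 (without CIH library 3). In the libraries numbered 1 and 2 it ranged from -0.0347 (without CIH library 1) to 0.72 (without CIH library 2). There miR-292a-3p ranged from -0.62 (without control library 1) to 0.41 (without control library 2). miR-292a-5p ranged from -0.52 (without CIH library 1) to 0.41 (without CIH library 2), with 0.13 without control library 2. miR-295-3p kept its sign, from -3.43 (without CIH library 2) to -1.40 (without control library 3) over 6 libraries and from -1.65 (without CIH library 2) to -0.34 (without CIH library 1) in the libraries numbered 1 and 2. Mean CPM of each member moved by less than 1 SD under both other library totals. That SD is wide where control library 3 stood apart, so this does not show that the means are stable. With TMM effective library sizes the control mean of miR-292a-5p moved from 9.03 to 12.7 CPM (SD 9.90). Depth limits all members: most library values rest on few counts, and the counting intervals given above set what can be seen.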
